A study of Mus musculus with 32 samples.

Results

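Glucocorticoid receptors and a set of genes that respond to glucocorticoids were followed in the hypothalamus of Gpr101 knockout and wild-type mice. The set held 10 genes of 55401 in the table: the receptors Nr3c1 and Nr3c2 and the response genes Tsc22d3, Sgk1, Fkbp5, Cdkn1a, Zbtb16, Hif3a, Plin4 and Pdk4. Each was found by matching its symbol to its Ensembl identifier in a GRCm38 annotation, and all 10 were matched and tested. All 32 animals were male C57BL/6NTac mice, and Gpr101, which encodes an X-linked orphan receptor, was deleted in the hemizygous knockouts. WT_CD were 7 wild-type littermates on control diet and WT_HFD 8 wild types on a high-fat diet that took 60% of its energy from fat. KO_CD were 8 knockouts on control diet and KO_HFD 9 knockouts on the high-fat diet. The diet began at 7 weeks of age and the mice were killed at 150 days according to the protocol. The sample labels gave 149 days for 6 of 7 WT_CD, 5 of 8 KO_CD, 1 of 8 WT_HFD and 1 of 9 KO_HFD mice and 150 days for the rest, so that labelled age and diet moved together in part. The labels name no promoter or Cre that would limit the deletion to a tissue.

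Corticosterone, the main glucocorticoid of mice, crosses into cells and binds a pair of related nuclear receptors, the high-affinity mineralocorticoid receptor and the lower-affinity glucocorticoid receptor. A complex of Hsp90, its cochaperones and immunophilins holds the unliganded receptor in the cytoplasm, and the bound receptor moves to the nucleus and acts at glucocorticoid response elements. In the hypothalamus the hormone restrains the neurons that drive its own release, and its level in blood follows the time of day, stress and feeding.

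The libraries held 25.3 to 34.2 megareads on genes, the median being 27.7, and 55141 identifiers had a symbol. Gpr101 had 0 reads in all KO_CD libraries, 0 to 1 in KO_HFD, 2605 to 3145 in WT_CD and 2471 to 3472 in WT_HFD. All 14 genes of a hypothalamic marker list passed the filter on low values, and the mean log2 normalized count of that list per mouse lay between 10.02 and 10.36. Of that list 2 genes were called with diet averaged over genotypes: Hcrt, the orexin precursor, fell by 0.36 on the log2 scale (SE 0.08, limma adjusted p = 0.0362) and Avp, the vasopressin gene, rose by 0.34. Of 12 microglial markers 1 was called, Ctss, the lysosomal protease cathepsin S, which rose by 0.14 (SE 0.03, limma adjusted p = 0.00998). The 4 globin genes Hbb-bs, Hba-a2, Hba-a1 and Hbb-bt rose by 0.59 to 0.62 on the log2 scale, and all 14 meningeal markers had values above 0 with a median of 0.65, although none of these 14 passed the test. Mean meningeal levels per mouse spanned 6.99 to 9.56 in KO_CD, 7.19 to 9.83 in KO_HFD, 7.12 to 9.03 in WT_CD and 6.92 to 9.80 in WT_HFD (log2), so that the groups overlapped. In bulk tissue, fewer cells of a type and less RNA per cell cannot be told apart.

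The sequences before the start sites of 3 response genes show what the receptor could read there. RefSeq (GRCm38.p6) start-site windows of 300 bases, 250 before and 50 after the start, were found for 8 members and were not found for Nr3c1 and Zbtb16. The motif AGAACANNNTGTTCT, the palindromic glucocorticoid response element, was searched on both strands, as was its arm AGAACA, which the whole element holds on each strand. The whole element was in 3 of 32851 windows (0.00913%), and 1 of these 3 belonged to Sgk1. The arm was in 19% of all windows and in 4 of the 16 members' windows, 3 of Sgk1 and 1 of Tsc22d3. The palindrome TGACGTCA, the cAMP response element that Gs signalling acts on, was in 1.79% of windows and in 0 of 16. The Sgk1 sequence below covers the 250 bases before the start at base 21993890 (chr10:21993640-21993889, plus strand). It overlaps no annotated exon and lies inside 5 longer Sgk1 transcripts. Its element AGAACAGAATGTTCT spans chr10:21993701-21993715, which is -189 to -175 from the start. For comparison, 1 of the 3 Tsc22d3 windows, the one that overlaps no annotated exon (chrX:140548572-140548821, minus strand), and the Fkbp5 window (chr17:28486150-28486399, minus strand) are shown. Neither of these holds the element or its arm, whereas another Tsc22d3 window, with its start at base 140600522, holds the arm at -185 to -180. All are written from 5′ to 3′, with matches to the element and its arm in capitals.
Sgk1: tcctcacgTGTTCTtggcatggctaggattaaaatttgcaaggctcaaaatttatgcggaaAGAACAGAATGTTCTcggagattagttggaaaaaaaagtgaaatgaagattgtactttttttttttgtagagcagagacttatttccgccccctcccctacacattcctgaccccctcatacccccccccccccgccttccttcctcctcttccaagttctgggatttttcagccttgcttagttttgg
Tsc22d3: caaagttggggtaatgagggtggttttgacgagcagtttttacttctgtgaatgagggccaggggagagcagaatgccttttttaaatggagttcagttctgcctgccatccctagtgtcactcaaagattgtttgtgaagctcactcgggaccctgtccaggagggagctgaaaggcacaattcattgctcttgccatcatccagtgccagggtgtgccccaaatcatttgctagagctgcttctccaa
Fkbp5: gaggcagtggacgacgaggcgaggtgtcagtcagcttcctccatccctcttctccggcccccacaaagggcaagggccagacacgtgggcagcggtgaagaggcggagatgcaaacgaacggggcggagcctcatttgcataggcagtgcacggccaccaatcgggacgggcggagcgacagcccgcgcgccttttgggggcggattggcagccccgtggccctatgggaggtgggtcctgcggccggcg
These windows are short, and a match is a description of letters and not a measured binding site.

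The members differed in level by more than an order of magnitude. Levels between genes are given per length, as CPM (reads scaled to a total of 1 megaread on genes) per kilobase of annotated exon, with the SD over 32 mice. Tsc22d3 was highest at 14.7 ± 1.72, followed by Nr3c1 at 13.5 ± 0.644, Sgk1 at 5.87 ± 1.75 and Nr3c2 at 4.15 ± 0.218. Fkbp5 followed at 3.04 ± 0.214, Cdkn1a at 2.62 ± 0.355, Pdk4 at 2.55 ± 0.278 and Zbtb16 at 2.29 ± 0.312. Plin4 at 0.989 ± 0.227 and Hif3a at 0.525 ± 0.169 were lowest. The neighbours Nr3c1 and Sgk1, Nr3c2 and Fkbp5, and Zbtb16 and Plin4 kept this order in 32 of 32 mice. Cdkn1a exceeded Pdk4 in only 17 of 32 mice, so this pair did not differ beyond its spread. Tsc22d3 exceeded Nr3c1 in 24 mice, and Fkbp5 exceeded Cdkn1a, and Pdk4 exceeded Zbtb16, in 27 mice each. The spread between mice also differed between members. Within groups the coefficient of variation of the normalized count was 3.02% to 4.96% for Nr3c1 and 3.91% to 5.08% for Nr3c2. It reached 34.8% for Sgk1 in WT_CD and 38.8% for Hif3a in KO_CD.

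No member passed the test in any comparison of genotype or diet. Throughout, normalized counts are reads divided by the size factor of a library, a log2 fold change (with its SE) is the difference of log2(normalized count + 1), and a gene was called when limma's p, adjusted by the Benjamini-Hochberg method over 19928 genes, was below 0.05. For genotype on control diet 0 of 10 members were called against 0.00502% of all genes, and for genotype on high-fat diet 0 of 10 against 0.00502%. For diet in wild types 0 of 10 were called against 0.0251%, and for diet in knockouts 0 of 10 against 0.0351%. For genotype averaged over diets 0 of 10 were called against 0.00502%, for diet averaged over genotypes 0 of 10 against 0.336%, and for the interaction of genotype and diet 0 of 10 against 0%. In that order of the 7 comparisons, limma's unadjusted p was below 0.05 for 1, 2, 1, 2, 1, 3 and 2 members, and for 4.12%, 5.15%, 7.39%, 7.04%, 5.72%, 11.1% and 3.39% of all genes. limma-voom on the recovered reads also called 0 of 10 members in each comparison. The plots of normalized counts per mouse and of fold changes show the values behind these counts.

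**Figure D1:**
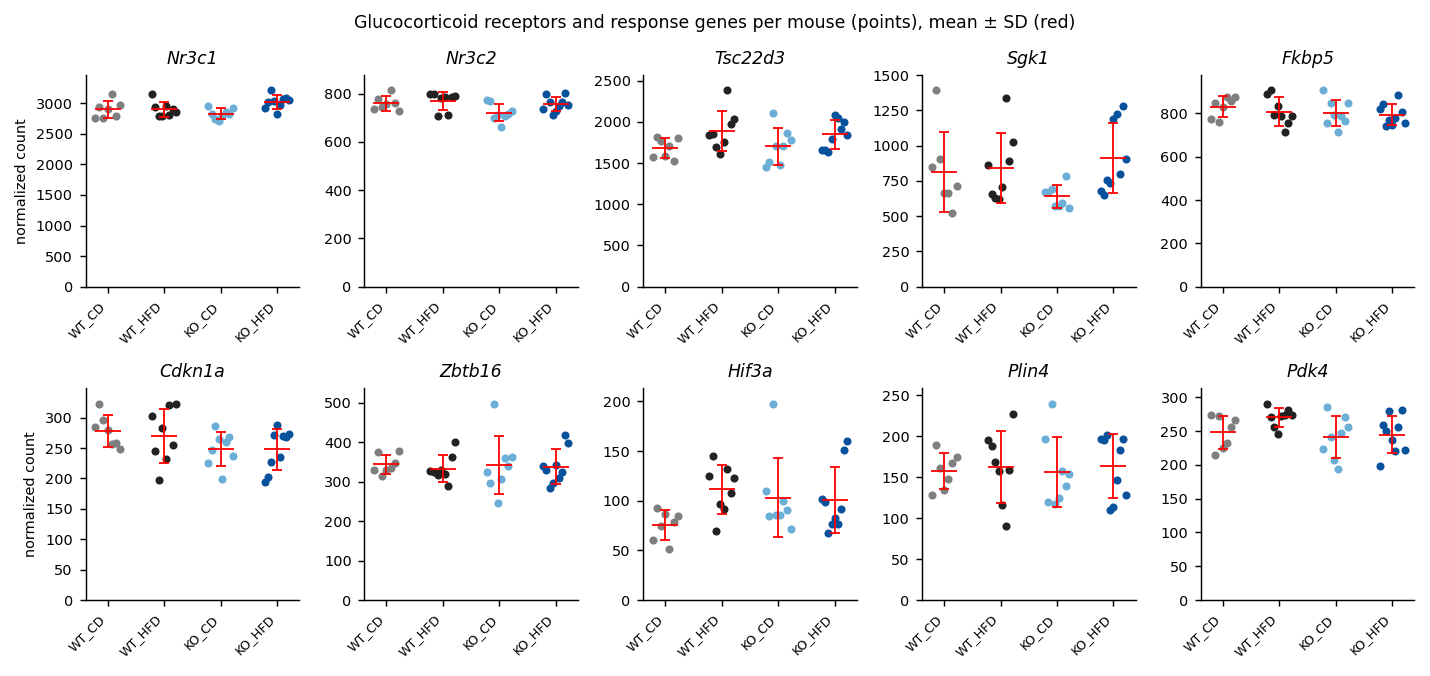
Normalized counts (vertical axes, from 0) of the 10 members in each mouse (points) of WT_CD, WT_HFD, KO_CD and KO_HFD, with the group mean and SD in red. For every member the mice of all 4 groups overlap; Sgk1 and Hif3a are the most dispersed, and Nr3c1 and Nr3c2 the least.

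The receptors varied least. Nr3c1, the glucocorticoid receptor (chromosome 18, 39410545 to 39519421, minus strand), had a lowest, median and highest normalized count of 2755, 2910 and 3154 in WT_CD and of 2785, 2876 and 3142 in WT_HFD. In KO_CD these were 2702, 2819 and 2952, and in KO_HFD 2820, 3026 and 3209. The KO_HFD mice lay highest, with 7 of 9 above the highest KO_CD mouse, whereas the ranges of both wild-type groups nearly coincided. The log2 fold change with diet was 0.09 (SE 0.03) in knockouts, with limma adjusted p = 0.361, and 0.00 (SE 0.03) in wild types with adjusted p = 0.999. The difference between these diet effects was 0.09 (SE 0.04), with limma adjusted p = 0.999, so it was not called. Nr3c2, the mineralocorticoid receptor (chromosome 8, 76899442 to 77245012, plus strand), had 727, 756 and 814 normalized counts in WT_CD and 709, 785 and 800 in WT_HFD. In KO_CD it had 663, 714 and 774, and in KO_HFD 713, 754 and 801. Although 6 of 8 KO_CD mice were below the lowest WT_CD mouse, the log2 fold change of -0.07 (SE 0.04) had an adjusted p of 1.000 in limma. The ratio of Nr3c1 to Nr3c2 per kilobase was 3.27 ± 0.147 (SD, n = 32), with group means from 3.17 in WT_HFD to 3.36 in KO_HFD and a range over mice of 3.00 to 3.58.

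Sgk1, a kinase that acts on ion channels and transporters (chromosome 10, 21882184 to 21999903, plus strand), was spread widely in 3 of the 4 groups. It had a lowest, median and highest normalized count of 524, 714 and 1393 in WT_CD and of 622, 787 and 1339 in WT_HFD. In KO_CD it had 556, 635 and 788, and in KO_HFD 649, 802 and 1278. KO_CD was the compact group, and 5 of 9 KO_HFD mice exceeded its highest mouse. The log2 fold change with diet was 0.47 (SE 0.18) in knockouts, with limma adjusted p = 0.551, and 0.06 (SE 0.19) in wild types, with adjusted p = 0.969. For genotype on control diet it was -0.29 (SE 0.19, adjusted p = 1.000) in limma, and without WT_CD replicate 2, the highest mouse, it was -0.15. Immediate early genes, which neuronal activity switches on, had lower values in the same comparison: 18 of 18 were below 0 with a median of -0.61, and none was called. With diet in knockouts 18 of 18 were above 0 with a median of 0.39, again with none called. Their mean log2 level per mouse was 8.05 to 9.17 in KO_CD, 8.59 to 9.37 in KO_HFD, 8.59 to 9.69 in WT_CD and 8.63 to 9.44 in WT_HFD. In KO_CD it was 8.05 to 8.69 in the 5 mice labelled 149 days and 9.07 to 9.17 in the 3 labelled 150 days. In WT_CD the 6 mice labelled 149 days had 8.59 to 9.69 and the 1 labelled 150 days had 9.46. The cause of the split in KO_CD was not tested, nor was the part of the immediate early genes in the Sgk1 values.

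Tsc22d3, which encodes the leucine zipper protein GILZ (chromosome X, 140539528 to 140600659, minus strand), had 1528, 1703 and 1815 normalized counts in WT_CD and 1609, 1846 and 2382 in WT_HFD. In KO_CD it had 1451, 1707 and 2107, and in KO_HFD 1628, 1843 and 2078. The groups overlapped, although 5 of 8 WT_HFD mice were above the highest WT_CD mouse. Averaged over genotypes the log2 fold change with diet was 0.14 (SE 0.05), with limma adjusted p = 0.314. With labelled age in the fit, which moved with diet in part, it was 0.07. Fkbp5, an Hsp90 cochaperone that lowers the receptor's affinity for hormone (chromosome 17, 28399094 to 28517527, minus strand), was among the steadiest response genes. Its lowest, median and highest counts were 760, 845 and 875 in WT_CD, 713, 791 and 906 in WT_HFD, 712, 789 and 905 in KO_CD and 743, 778 and 884 in KO_HFD. Its 95% intervals for the 4 comparisons of single groups lay between -0.15 and 0.08 on the log2 scale.

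Hif3a, a hypoxia-inducible factor subunit whose short forms oppose the other subunits (chromosome 7, 17031507 to 17062427, minus strand), had the fewest reads, 56 to 190 per library. Its normalized counts were 51.2, 78.2 and 92.8 in WT_CD and 69.8, 116 and 145 in WT_HFD as lowest, median and highest. In KO_CD they were 71.3, 88.0 and 198, and in KO_HFD 67.2, 91.3 and 160.0. WT_CD was the lowest group, and 6 of 8 WT_HFD mice exceeded its highest mouse. The log2 fold change with diet was 0.55 (SE 0.19) in wild types, with limma adjusted p = 0.546, and -0.02 (SE 0.18) in knockouts, with adjusted p = 0.985. The difference between these effects was -0.57 (SE 0.27), with limma adjusted p = 0.999. For genotype on control diet the log2 fold change of Hif3a was 0.40 (SE 0.19, limma adjusted p = 1.000), and without KO_CD replicate 3 it was 0.26.

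**Figure D2:**
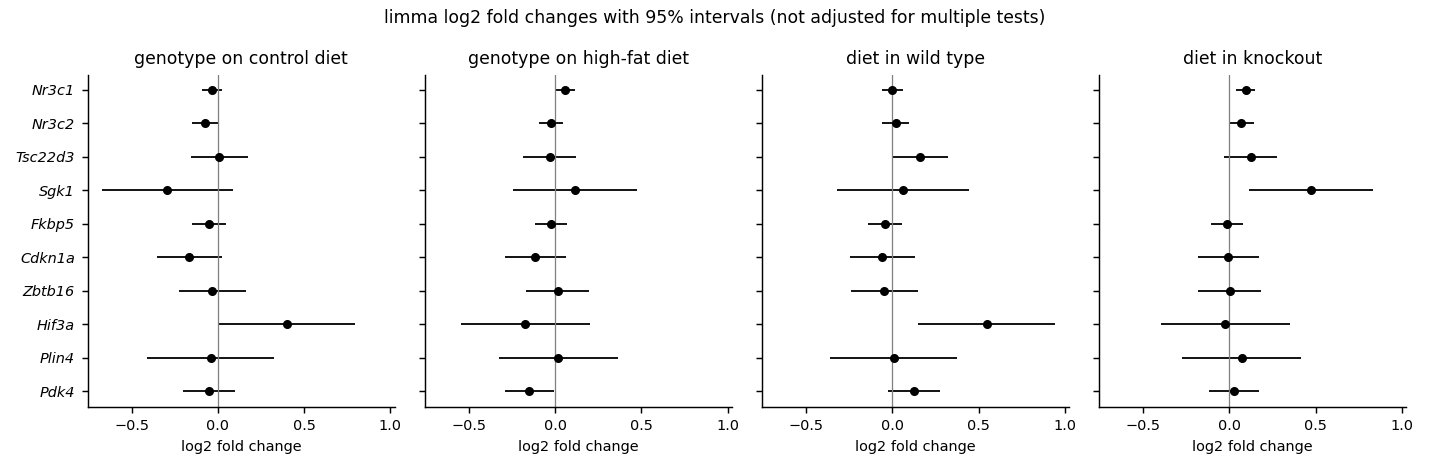
Log2 fold changes (horizontal axes) of the 10 members with 95% intervals, not adjusted for multiple tests, for knockout over wild type on each diet and for high-fat over control diet in each genotype. Intervals that leave out 0 belong to Hif3a and Sgk1, which are wide, and to Nr3c1 and Pdk4, which are narrow, and none of these passed adjustment.

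The remaining response genes overlapped between all groups. Cdkn1a, the cell cycle inhibitor p21 (chromosome 17, 29090976 to 29100727, plus strand), ranged from 195 to 323 normalized counts over all mice, with a log2 fold change with genotype averaged over diets of -0.14 (SE 0.06) and an adjusted p of 0.866 in limma. Pdk4, a kinase that switches off pyruvate dehydrogenase (chromosome 6, 5483351 to 5496309, minus strand), ranged from 194 to 291, and 4 of 9 KO_HFD mice were below the lowest WT_HFD mouse. Its log2 fold change with genotype on high-fat diet was -0.15 (SE 0.07), with limma adjusted p = 0.948. Zbtb16, the transcription factor PLZF (chromosome 9, 48654297 to 48836222, minus strand), ranged from 245 to 498, and its log2 fold changes for the 4 comparisons of single groups lay between -0.05 and 0.02. Plin4, a lipid droplet coat protein (chromosome 17, 56100591 to 56109803, minus strand), ranged from 89.7 to 239.6 and had values between -0.04 and 0.07 in those comparisons.

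Of the wider pathway, few genes were called with diet. Among 20 other glucocorticoid response genes 1 was called lower with diet averaged over genotypes and 0 were called higher, against 0.336% of all genes called. At an unadjusted p below 0.05 in limma 7 of the 20 were higher and 2 lower, against 11.1% of all genes in either direction. Values were above 0 for 14 of the 20, with a median log2 fold change of 0.05 against 0.00 for all genes. Fam107a, an actin-associated stress response gene, fell by 0.12 (SE 0.03, limma adjusted p = 0.0404), and Mfsd2a, a lipid transporter of the blood-brain barrier, had -0.16 (SE 0.04, adjusted p = 0.0649). Of 13 receptor chaperones and cochaperones none was called, and the 2 lowest unadjusted p belonged to Stip1, the Hsp70-Hsp90 organizing protein (-0.09, SE 0.03, limma adjusted p = 0.211), and Hspa4 (-0.03, SE 0.01, adjusted p = 0.374). Of 14 receptor coregulators none was called, and Ncoa6, a coactivator, had -0.04 (SE 0.02, limma adjusted p = 0.486). Of 11 genes of glucocorticoid synthesis, metabolism and transport 7 were tested and none was called. There the lowest p belonged to Abcb1a, an efflux pump that exports steroids at the blood-brain barrier (0.10, SE 0.06, adjusted p = 0.518), and Cyp11a1, the enzyme of the first step of steroid synthesis (-0.20, SE 0.11, adjusted p = 0.524). Of 10 tested genes of the hypothalamic-pituitary-adrenal axis, Avp rose by 0.34 (SE 0.08, limma adjusted p = 0.0477). Crh, the corticotropin-releasing hormone, had 0.11 (SE 0.12, adjusted p = 0.798). Among 14 clock genes Npas2 fell by 0.21 (SE 0.04) and Arntl by 0.15 (SE 0.03), whereas Bhlhe41 rose by 0.10 (SE 0.02), with limma adjusted p-values of 0.0118, 0.0150 and 0.0305. In the comparisons by genotype and in the interaction none of the genes of these lists was called, nor was any with diet in wild types. With diet in knockouts only Npas2 was, which fell by 0.30 (SE 0.06, adjusted p = 0.0347). With labelled age in the fit, diet averaged over genotypes called 12 genes of the whole table in place of 67.

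Between mice of one group, some members varied closely together and others did not. For each of the 45 pairs the deviations of the 32 mice from their group means were correlated on the log2 scale, and p came from 100000 shuffles within groups. The r values ranged from -0.34 to 0.68 with a median of 0.19. Of the 45 pairs 8 exceeded 0.5, and 13 had an unadjusted permutation p below 0.05. The same shares over pairs of all genes were not computed, so these counts do not set the members apart from other genes. The 3 pairs among Sgk1, Tsc22d3 and Cdkn1a were among the 8 above 0.5. So were Fkbp5 with Plin4 and with Nr3c2, Nr3c1 with Nr3c2, and Zbtb16 with Hif3a and with Plin4. Pdk4 stood apart, with r from -0.03 to 0.28 in its 9 pairs. The plot of all pairs shows this arrangement.

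**Figure D3:**
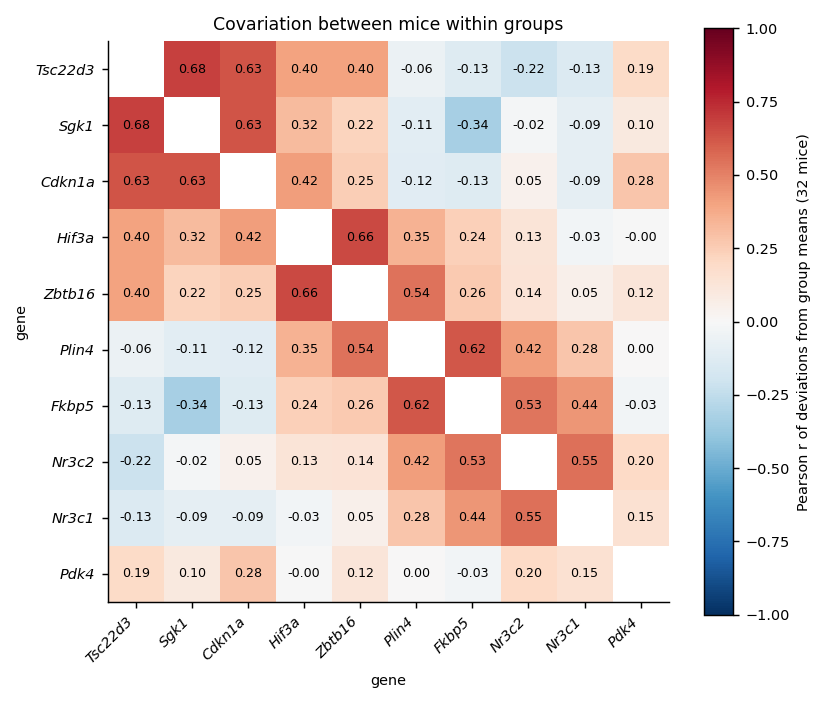
Pearson r (colour and printed values) of the deviations from group means over 32 mice for the 45 pairs of members, each shown on both sides of the diagonal. Tsc22d3, Sgk1 and Cdkn1a have r of 0.63 to 0.68 with each other, and Fkbp5 has 0.62 with Plin4 but -0.34 with Sgk1.

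Tsc22d3 and Sgk1 were the most closely related pair, with r = 0.682 and rho = 0.708. The permutation p of both was 1e-05, the smallest that the shuffles can give, and r was 0.656 without the 2 mice farthest from the median of Tsc22d3. Both genes deviated in the same direction in 22 of 32 mice. The 4 mice that ranked 6 or higher for both were WT_HFD replicate 6 (1 for Tsc22d3 and 2 for Sgk1), KO_HFD replicate 5 (3 and 5), KO_HFD replicate 6 (4 and 4) and KO_HFD replicate 8 (6 and 3). By group r was 0.947 in WT_HFD, 0.900 in KO_HFD, 0.633 in WT_CD and 0.279 in KO_CD. The log2 slope of Sgk1 on Tsc22d3 was 2.26 on high-fat and 0.78 on control diet, a difference of 1.48 (SE 0.60) with limma adjusted p = 0.520, so a difference between diets was not called. Cdkn1a followed both genes. Its r with Tsc22d3 was 0.631 (permutation p = 0.00039, rho = 0.622 with permutation p = 0.00041, 0.568 without the 2 farthest mice). With Sgk1 it was 0.630 (permutation p = 0.00038, rho = 0.630 with permutation p = 0.000850, 0.567 without the 2 farthest mice).

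The same covariation was tested against all genes, with each member in turn as a term beside group in limma and adjustment over 19927 genes. With Tsc22d3 as the term, 0.236% of all genes were called positive and 0.171% negative, and Sgk1 (adjusted p = 0.0243) and Cdkn1a (adjusted p = 0.0273) were 2 of the 47 positive genes. With Plin4, 0.376% of genes were called positive and 0.0502% negative, and Fkbp5 (adjusted p = 0.0476) was 1 of these. With Sgk1, 0.0301% were called positive and 0% negative, with no member among them, and Tsc22d3 (adjusted p = 0.0615) and Cdkn1a (adjusted p = 0.0628) ranked 8 and 17 among all genes. With Fkbp5, 0.0903% were called positive and 0.0401% negative, again with no member. With each of the other 6 members as the term 0% of genes were called in either direction, so 3 of 90 ordered pairs passed. The call of Sgk1 with Tsc22d3 was lost without KO_HFD replicate 5 or WT_HFD replicate 6, where its adjusted p reached 0.181. That of Cdkn1a was lost without either of these or KO_CD replicate 5 (up to 0.166), and that of Fkbp5 with Plin4 was made in only 10 of 32 such fits. No pair was called after the clock and immediate early means or the replicate numbers were also removed. For Tsc22d3 with Sgk1 r was 0.598 and 0.702 in these fits, for Tsc22d3 with Cdkn1a 0.584 and 0.713, and for Fkbp5 with Plin4 0.579 and 0.697. With the replicate numbers removed the adjusted p-values in limma were 0.119, 0.0542 and 0.0767.

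**Figure D4:**
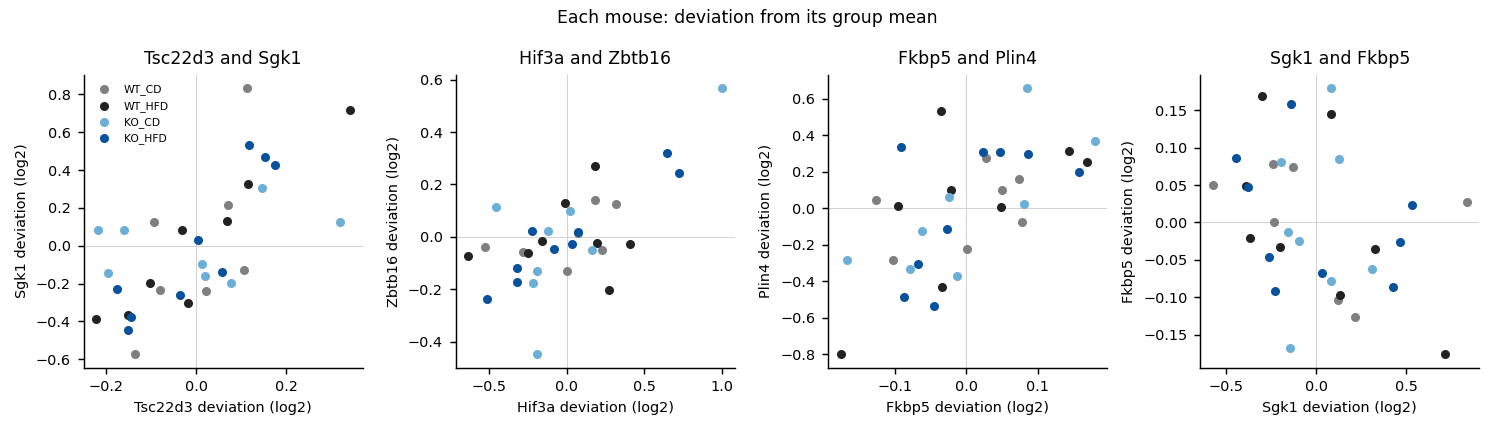
Deviation of each mouse from its group mean (log2, both axes) for 4 pairs of members, coloured by group. Tsc22d3 and Sgk1 have r = 0.682 over 32 mice; the 3 mice with the highest Hif3a carry the upper end of its relation with Zbtb16, and Sgk1 and Fkbp5 have r = -0.336.

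Over all 32 mice Fkbp5, a common readout of receptor activity, had r below 0 with the other 2 strongly expressed response genes. The value was -0.129 with Tsc22d3 (permutation p = 0.527, rho = -0.099 with permutation p = 0.611, -0.064 without the 2 farthest mice). With Sgk1 it was -0.336 (permutation p = 0.0648, rho = -0.378 with permutation p = 0.0392, -0.299 without the 2 farthest mice). The sign was not stable for Tsc22d3: r was 0.186 in control-diet and -0.390 in high-fat mice, and 0.017 without WT_HFD replicate 6. For Sgk1 these values were -0.142, -0.477 and -0.238, with 0.097 in KO_CD. Neither slope of Fkbp5 was called as different between diets (limma adjusted p = 0.695 on Tsc22d3 and 0.843 on Sgk1). Fkbp5 moved with Plin4, with r = 0.617 (permutation p = 0.000610, rho = 0.584 with permutation p = 0.000980, 0.588 without the 2 farthest mice), and this r was 0.409 to 0.750 within single groups. Fkbp5 also moved with the mineralocorticoid receptor gene Nr3c2, at r = 0.534 (permutation p = 0.0041, rho = 0.471 with permutation p = 0.0105, 0.492 without the 2 farthest mice). For the glucocorticoid receptor gene Nr3c1 the r with Fkbp5 was 0.438 (permutation p = 0.0151, rho = 0.434 with permutation p = 0.0181, 0.336 without the 2 farthest mice). Nr3c1 had r = -0.134 with Tsc22d3 (permutation p = 0.465, rho = -0.054 with permutation p = 0.771, -0.161 without the 2 farthest mice). With Sgk1 its r was -0.086 (permutation p = 0.676, rho = -0.046 with permutation p = 0.816, -0.062 without the 2 farthest mice). WT_HFD replicate 6, without which the r of Fkbp5 with Tsc22d3 was not below 0, ranked 1 for Tsc22d3 and 2 for Sgk1 and Cdkn1a. The same mouse ranked 32 of 32 for both Fkbp5 and Plin4. KO_CD replicate 3, which ranked 2 for Tsc22d3, went the other way and ranked 6 for Fkbp5 and 1 for Plin4.

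Markers of other cells moved with Plin4. The mean of 14 meningeal markers had r = 0.609 with Plin4 (permutation p = 0.000920, rho = 0.663 with permutation p = 0.00028, 0.573 without the 2 farthest mice, adjusted p = 0.0360 over 230 relations with list means and library properties). For mural cell markers and Plin4 r was 0.573 (permutation p = 0.00215, rho = 0.619 with permutation p = 0.000640, 0.554 without the 2 farthest mice, adjusted p = 0.0470). The r of Fkbp5 with meningeal markers was 0.484 (permutation p = 0.0107, rho = 0.453 with permutation p = 0.0144, 0.373 without the 2 farthest mice, adjusted p = 0.117). The mean of 12 neuronal markers had r = -0.549 with Fkbp5 (permutation p = 0.00225, rho = -0.448 with permutation p = 0.0157, -0.480 without the 2 farthest mice), with an adjusted p of 0.0470 for r and 0.165 for rho. After removal of the meningeal, blood and oligodendrocyte means, r was 0.480 in place of 0.617 for Fkbp5 with Plin4. It was 0.091 in place of 0.417 for Nr3c2 with Plin4, and 0.763 in place of 0.682 for Tsc22d3 with Sgk1. The other list means, those of mural and neuronal markers among them, were not removed here. Nr3c1 and Nr3c2 were related to each other at r = 0.554 (permutation p = 0.00125, rho = 0.557 with permutation p = 0.00148, 0.470 without the 2 farthest mice). Both moved against the percent of reads from the mitochondrial genome, which was 4.18% to 4.83% over mice. These r were -0.611 for Nr3c1 (permutation p = 0.00016, rho = -0.654 with permutation p = 6e-05, -0.640 without the 2 farthest mice, adjusted p = 0.0184) and -0.621 for Nr3c2 (permutation p = 0.00028, rho = -0.638 with permutation p = 0.00025, -0.625 without the 2 farthest mice, adjusted p = 0.0215). With that percent removed, r of Nr3c1 with Nr3c2 was 0.281. Nr3c2 also moved against the mean of the tested genes of the hypothalamic-pituitary-adrenal axis, at r = -0.548 (permutation p = 0.0016, rho = -0.593 with permutation p = 0.000680, -0.483 without the 2 farthest mice, adjusted p = 0.0460 for r and 0.0279 for rho). For Nr3c1 and that mean r was -0.472 (permutation p = 0.0142, rho = -0.460 with permutation p = 0.0138, -0.410 without the 2 farthest mice, adjusted p = 0.130).

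Hif3a and Zbtb16 were related at r = 0.656 (permutation p = 0.00045, rho = 0.526 with permutation p = 0.00311, 0.559 without the 2 farthest mice). The r was 0.954 in KO_HFD, 0.729 in KO_CD, 0.505 in WT_CD and 0.115 in WT_HFD. KO_CD replicate 3 ranked 1 of 32 for Hif3a, Zbtb16 and Plin4 and 2 for Tsc22d3, and without it r of Hif3a with Zbtb16 was 0.526. Zbtb16 also moved with Plin4 at r = 0.540 (permutation p = 0.00335, rho = 0.446 with permutation p = 0.0198, 0.399 without the 2 farthest mice), which was 0.439 without that mouse.

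Among the 20 other glucocorticoid response genes, Nfkbia, the inhibitor of NF-kB that glucocorticoids induce, and Per1, a clock gene with glucocorticoid-responsive transcription, followed Sgk1 most closely. Over all 19927 genes they ranked 1 and 2, with r = 0.829 and limma adjusted p = 2.48e-06 for Nfkbia and r = 0.782 and adjusted p = 0.00130 for Per1. These were the 2 of 20 listed genes that were called with Sgk1. The r of 18 of the 20 with Sgk1 was above 0, with a median of 0.33 against -0.01 for all genes. The lowest was -0.472, for Angptl4 (limma adjusted p = 0.328). Ddit4, a stress-induced inhibitor of mTORC1, had r = 0.676 and limma adjusted p = 0.0626, and Klf9, a transcription factor induced by the receptor, r = 0.640 and adjusted p = 0.0628. With Tsc22d3 1 of the 20 was called, Nfkbia (r = 0.694, limma adjusted p = 0.0119), and the median was 0.29. The r of 17 of the 20 with Cdkn1a and of 16 with Hif3a was also above 0, with medians of 0.32 and 0.20 and none called. With Fkbp5 none was called, the r of 10 of the 20 was above 0 and the median was 0.01. Nfkbia and Per1 had r of -0.259 and -0.296 with Fkbp5, whereas the highest of the 20 was 0.450, for Sult1a1. The mean of the immediate early genes had r = 0.508 with Sgk1 (permutation p = 0.00205, rho = 0.488 with permutation p = 0.00353, 0.505 without the 2 farthest mice). Its adjusted p over 230 relations was 0.0470 for r and 0.0784 for rho. After removal of the clock and immediate early means, Tsc22d3 with Sgk1 had r = 0.598 and Sgk1 with Cdkn1a 0.568.

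The chaperones that fold and hold the receptor followed Tsc22d3. Of 13 genes 5 were called positive with it against 0.236% of all genes, and the r of 13 of 13 was above 0 with a median of 0.55 against -0.01 for all genes. Dnaja1, an Hsp40 cochaperone, ranked 1 of 19927 by p, with r = 0.743 and limma adjusted p = 0.00602. The Hsp90 genes Hsp90ab1 and Hsp90aa1 had r of 0.693 and 0.678, each with adjusted p = 0.0119. Dnajb1 had r = 0.666 and adjusted p = 0.0309, and Hspa8, the constitutive Hsp70, r = 0.596 and adjusted p = 0.0440. The mean of the 13 genes had r = 0.705 with Tsc22d3 (permutation p = 0.00013, rho = 0.617 with permutation p = 0.000850, 0.589 without the 2 farthest mice, adjusted p = 0.0184 over 230 relations). None of the 13 was called with any of the other 9 members. With Cdkn1a, Hif3a, Zbtb16, Pdk4, Nr3c1 and Nr3c2, however, 0% of all genes were called, and with Sgk1 only 0.0301% were called positive. The r of 13 of 13 was above 0 with Cdkn1a too, with a median of 0.36, and with Sgk1, with a median of 0.27. The median was -0.15 with Fkbp5 and -0.33 with Nr3c2. The 14 coregulators had no called gene with any member, where the same shares of all genes apply. Their median r was 0.28 with Nr3c1, -0.30 with Tsc22d3, -0.33 with Sgk1 and -0.27 with Cdkn1a.

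**Figure D5:**
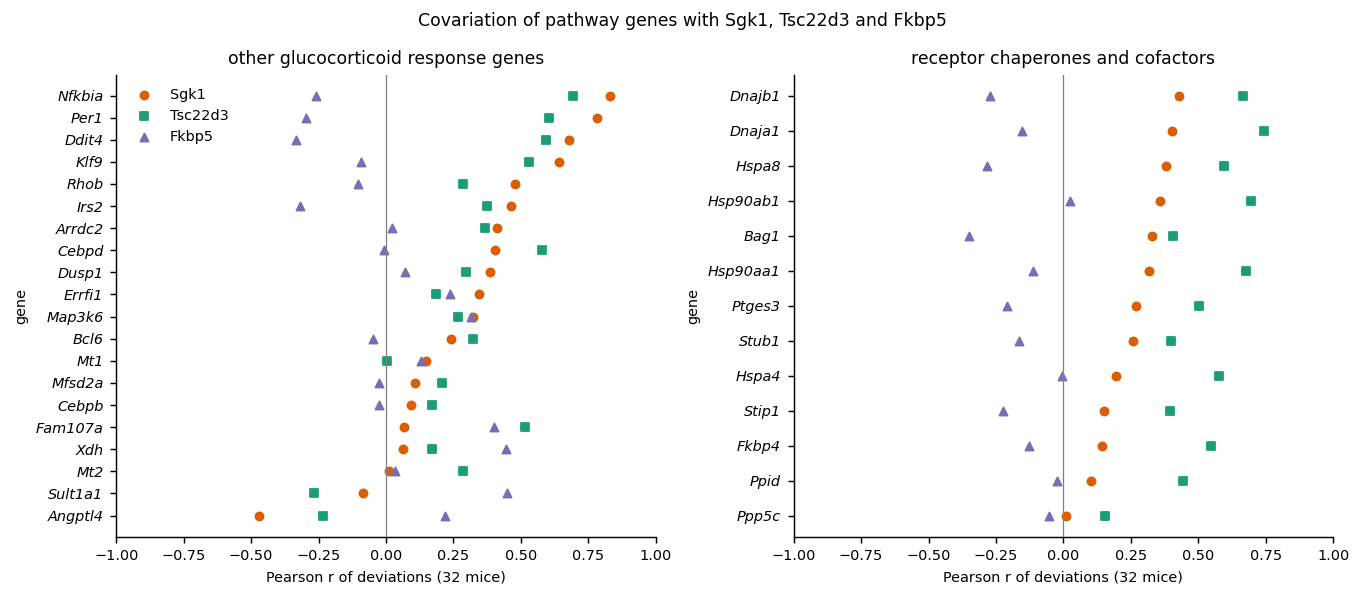
Pearson r over 32 mice (horizontal axis, deviations from group means) of 20 other glucocorticoid response genes (left) and 13 receptor chaperones and cofactors (right) with Sgk1 (circles), Tsc22d3 (squares) and Fkbp5 (triangles). Nfkbia and Per1 lead with Sgk1 at 0.829 and 0.782, and the chaperones lie farther right for Tsc22d3 than for Sgk1. Fkbp5 lies on both sides of 0 in the left panel, and near or left of 0 for most chaperones.

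By r over 32 mice, among genes of at least 1 CPM outside the set, the 3 most like each member were as follows. Those of Sgk1 were Nfkbia, Per1 and Arl4d (0.829 to 0.720). Those of Tsc22d3 were Yipf5, Ppp1cb and Dnaja1 (0.771 to 0.743). Fkbp5 was most like Msn, Trim56 and Gpc6 (0.760 to 0.729) and Plin4 most like Lama2, Msn and Trpm3 (0.722 to 0.709), so the cytoskeletal linker gene Msn was shared. Hif3a was most like Nrros, Sdc4 and Klf9 (0.678 to 0.644), and Zbtb16 most like Gnl3l, Adipor2 and Plk-ps1 (0.724 to 0.637). Nr3c1 was most like Nin, Pde1c and Mob3b (0.687 to 0.653), and Nr3c2 most like Thoc2, Cyfip1 and Cfap44 (0.692 to 0.633). Cdkn1a was most like Snx20, Pcyox1l and Atg16l1 (0.676 to 0.624), and Pdk4 most like Eaf1, Alkbh5 and Mfap1a (0.712 to 0.666). These were chosen for their r from all genes, so the values describe the choice and carry no test.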

How the data were processed

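RNA of the hypothalamus of 32 mice was sequenced as stranded 150-base read pairs on a NovaSeq 6000, per the labels' protocols. Per the submitters' processing notes the build was GRCm38 and the software comprised STAR 2.7.6a, cutadapt 2.10 under Trim Galore 0.6.2, FastQC, and DESeq2 1.28.1 under R 4.0.2. How reads were assigned to genes, with which strand setting and gene models, is not given in the sources used here, so overlapping genes may share reads.

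The authors deposited log2 values. Undoing the log showed each to be a number of reads over a size factor, with 0 entered as log2 of 0.1, and 100% of values came back as whole reads within 1e-06 reads (largest deviation 1.21e-08). At the median depth 1 read is 0.0361 CPM. Depth limits counting error only, since reads lack molecular identifiers.

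Genes that reached a normalized count of 10 in at least 7 libraries were tested, 19928 in all, by limma 3.58.1 (trend, robust, statmod 1.5.0) under R 4.3.3 on log2(normalized count + 1). The pseudocount of 1 understates changes of low genes. All 4 groups, as labelled, were fitted jointly without covariates, two-sided, with Benjamini-Hochberg adjustment at 0.05. For covariation a member was added to the group term, 1 fit per member. The rest used Python 3.11.15, numpy 2.4.6, pandas 2.3.3, scipy 1.17.1 and matplotlib 3.10.9. The fit was tested on simulated data. Alternatives were the pseudocount, the filter, scaling to total reads, limma-voom, labelled age, marker means, the replicate number as a block and leaving out each library. Blocks of mouse numbers, slopes by diet and removal of the mitochondrial percent were added after seeing the data.

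Members and gene lists were chosen with earlier results of these data known. Named by rule were all members, called genes of the lists, up to 2 genes of lowest p with diet in each list of receptor and glucocorticoid genes, the 3 genes most like each member, and Gpr101. A gene that this rule takes is not reported here. Crh, the r of Ddit4, Klf9 and Angptl4 with Sgk1, and the r of Nfkbia, Per1 and Sult1a1 with Fkbp5 were added after their values were seen. The labels number each mouse separately, and p-values measure the spread between these mice.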

Additional observations from a re-analysis of the deposited data

Results flagged for a closer look

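Each member in each group was searched for a mouse whose gap to its nearest neighbour, divided by the range of the group, exceeded Dixon's 95% critical value. Of 40 such groups 3 held one, and chance gives about 1 in 20. Hif3a in KO_CD replicate 3 had a normalized count of 197.91, and the next mouse had 110.03. Zbtb16 in the same mouse was 497.9, and the next was 362.62. Nr3c1 in WT_HFD replicate 1 was 3141.5, and the next was 2952.4. KO_CD replicate 3 also had the lowest immediate early mean of its group, at 8.05 on the log2 scale. Its reads on genes lay within the range of the other libraries. The part of the immediate early genes in these values was not tested.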

How the results depend on the processing

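The count of called members was 0 in all 7 comparisons under each alternative run, including every left-out library, and the lowest adjusted p of any member was 0.205. A quasi-likelihood count test was planned and was not run, because the deposited unit is log2. The number of ordered member pairs called in limma, 3 as reported, was 0 with the clock and immediate early means removed, 0 with the replicate block, 0 in control-diet mice alone and 0 without the 2 mice farthest from the median, 2 in high-fat mice alone, 4 with scaling to total reads or with marker means removed, and 0 to 6 without single replicates. With the replicate block r was 0.702 for Tsc22d3 with Sgk1, 0.713 for Tsc22d3 with Cdkn1a and 0.697 for Fkbp5 with Plin4, against 0.682, 0.631 and 0.617 as reported. Over the 8 alternatives other than left-out replicates, which include the blocks of mouse numbers, the number of called pairs was 0 to 4. In the smaller sets fewer mice were fitted, and for the other settings the cause was not tested. The r of Tsc22d3 with Zbtb16, 0.405 over all mice, was -0.0412 in WT_HFD alone. Over all genes, diet averaged over genotypes called 67 genes as reported, 12 with age, 30 with marker means, 43 without the filter and 41 to 87 without single replicates. Scaling to total reads gave 48 higher and 23 lower there against 37 and 30. Diet in wild types called 5 genes, 1 with age, 3 with the replicate block and 1 to 7 without single replicates. Diet in knockouts called 7 genes, 16 with marker means, 4 with scaling to total reads and 3 to 10 without single replicates. Genotype on control diet called 1 gene, and 2 without the filter. The labels state no pairing by replicate number, but mouse numbers ran in rounds over the groups, so same-numbered mice lay close in number. Mean correlations of same-numbered mice were -0.029 to 0.095, and 0 to 4 mice in a comparison correlated best with their own number. The highest mean, 0.095, belonged to genotype on high-fat diet, against -0.012 for other pairs. There 4 of 9 mice correlated best with their own number. The labels do not say whether a round was a batch. With the replicate block 0 members were called in each comparison. Pdk4 with diet averaged over genotypes was 0.08, and -0.01 with age.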
